A study of Mus musculus with 36 samples.

Results

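The gastrocnemius, the large calf muscle, was compared between mice that lack dystrophin and normal mice on MG_U74Av2 oligonucleotide arrays. The normal group was C57BL10, and the 2 mutant groups were mdx and mdx5cv, which each carry a different mutation of Dmd, the X-linked dystrophin gene. All animals were male and 8 weeks old, and each array carried RNA pooled from 5 mice. Of the 6 gastrocnemius columns in the deposited table, 4 were used, out of 34 arrays used in all 6 muscles of the series. They are C57BL10 samples 1 and 2, mdx sample 1 and mdx5cv sample 2. The column of mdx gastrocnemius sample 2 equals that of mdx quadriceps sample 2 in all 12488 probe sets, and the column of mdx5cv gastrocnemius sample 1 equals that of mdx5cv quadriceps sample 1, so both were left out. Each mutant therefore had 1 array here, and its spread was taken from the other groups of the series. The labels do not say whether samples of a group came from separate pools of mice. The p-values therefore measure only the spread between samples of a group, which may be technical. That spread is pooled over the 16 groups with 2 arrays, so it comes mostly from the other 5 muscles.

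Dystrophin is a long cytoskeletal protein under the membrane of the muscle fibre. It binds actin and a complex of membrane proteins, the dystroglycans and sarcoglycans, which in turn hold the laminin of the surrounding matrix. Fibres without it are prone to membrane damage and die in waves, macrophages clear them, and satellite cells rebuild them, so that mouse muscle of this age holds dying, regenerating and rebuilt fibres side by side. The mdx mutation is a premature stop codon, and mdx5cv is a point change that creates a new splice site.

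The 4 arrays carried muscle RNA. All 12 markers of skeletal muscle were measured, and their mean log2 signal was 16.42 and 15.67 in C57BL10 samples 1 and 2, 15.36 in mdx and 15.70 in mdx5cv. None of them passed the test described next, and their median difference was -0.46, or -0.14 after quantile normalization. The median Spearman correlation of these arrays with the rest of the series lay between 0.910 and 0.927. C57BL10 sample 1 and mdx5cv sample 2 were scanned in the third of 4 scanning periods, C57BL10 sample 2 in the first and mdx sample 1 in the second. The chip lots, numbered here, were 4 and 1 for C57BL10 samples 1 and 2, 2 for mdx and 5 for mdx5cv. No mutant array thus shared a lot with a C57BL10 array, and the part of the lot was not tested. For actin, the signal of the 3' end over that of the 5' end, which tells of RNA integrity, was 0.626 and 0.829 in C57BL10, 0.918 in mdx and 0.974 in mdx5cv, so it was higher in both mutants. Its part in the results was not tested. The same measure for Gapdh overlapped between the groups, from 0.961 to 1.21 in C57BL10 and from 0.912 to 1.10 in the mutants.

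In all that follows the 4 signals of a gene are given in the order C57BL10 sample 1, C57BL10 sample 2, mdx sample 1 and mdx5cv sample 2. Signals are the authors' linear array intensities, and signals under 118 were raised to that floor before the log was taken. A change is the mean log2 signal of the 2 mutant arrays minus that of the 2 C57BL10 arrays, ± the limma standard error. A gene is said to have risen or fallen where its adjusted p is under 0.05 over all 7453 probe sets tested. Where a gene given with its adjusted p lost that call with 1 of the 34 arrays left out, the highest adjusted p so reached is given with the array. That array need not be the only one whose loss undid the call. Ddit4, Junb and Atf3, for example, kept the call in only 9, 7 and 8 of the 34 fits. For lists, the number of genes that passed with any array left out is given. Because these are whole muscles, fewer cells of a type and less RNA per cell cannot be told apart.

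Mutant and normal gastrocnemius differed mostly by genes that were higher in the mutants, led by products of macrophages, monocyte chemokines, matrix proteins and embryonic forms of muscle proteins. Of 7453 probe sets, 168 passed the threshold (2.25%), 160 of them higher in the mutants (2.15%) and 8 lower (0.107%). At the level of 5695 genes, each read through 1 probe set, 128 rose (2.25%) and 5 fell (0.0878%). The median change over all genes was -0.03. The count of probe sets rested on the 4 arrays: it was 74 probe sets without C57BL10 sample 1, 100 without C57BL10 sample 2, 75 without mdx sample 1 and 108 without mdx5cv sample 2. In all, 39 genes passed with each of the 34 arrays left out in turn, 38 of them higher (0.667% of the genes) and 1 lower (0.0176%). All 39 also passed with the scanning period as a block and after quantile normalization, and of the 133 called genes 120 and 82 did so. The fit with that block left out the 4 arrays of the series whose period is unknown, none of them from gastrocnemius. In all 133 called genes both mutant arrays lay on the same side of both C57BL10 arrays. Among all genes 23.1% had both mutant arrays above and 22.9% below both C57BL10 arrays. Within the third scanning period C57BL10 sample 1 can be set against mdx5cv sample 2, with 1 array each and no test. The direction of that difference was already fixed for the 133 genes, so it is no separate check of the scanning period.

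**Figure D1:**
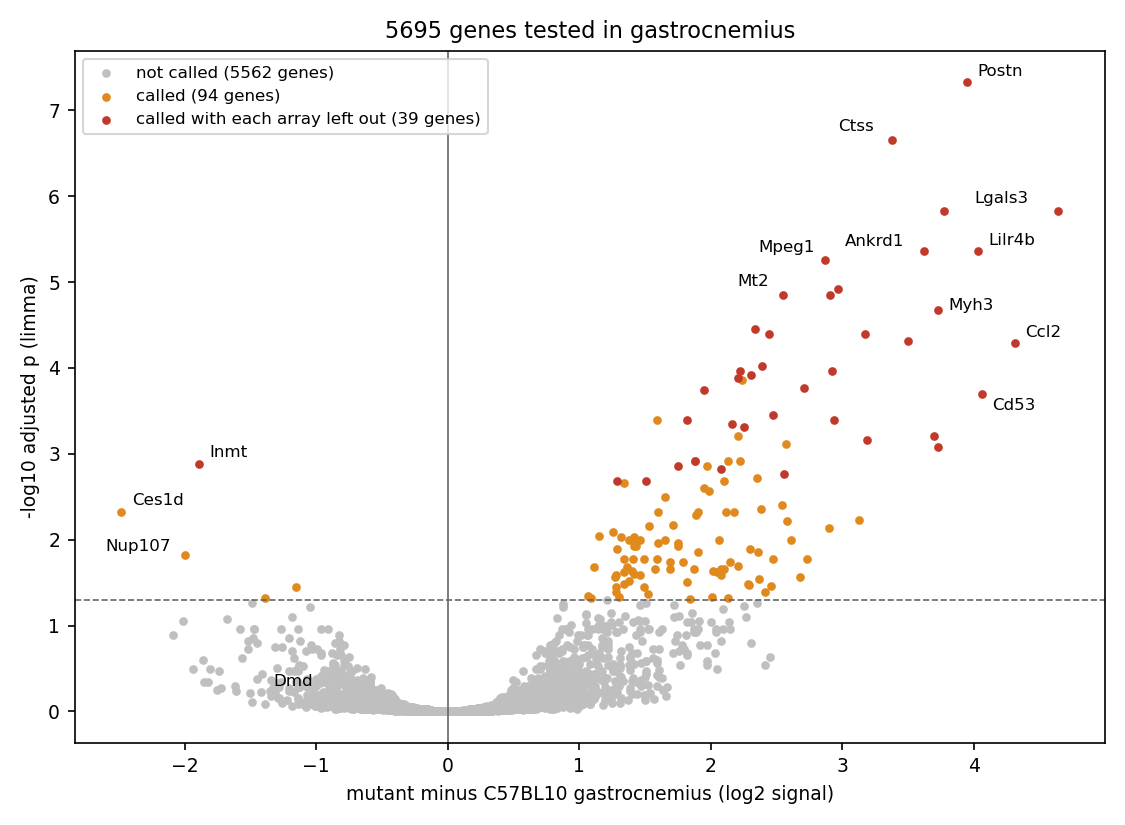
Change of each of 5695 genes (x axis, mutant minus C57BL10, log2 signal) against its limma adjusted p (y axis, -log10). Grey points did not pass 0.05 (dashed line), orange points passed, and the 39 red points passed with each array left out; all but 1 of the red points, Inmt, lie on the side of higher signal in the mutants.

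**Figure D2:**
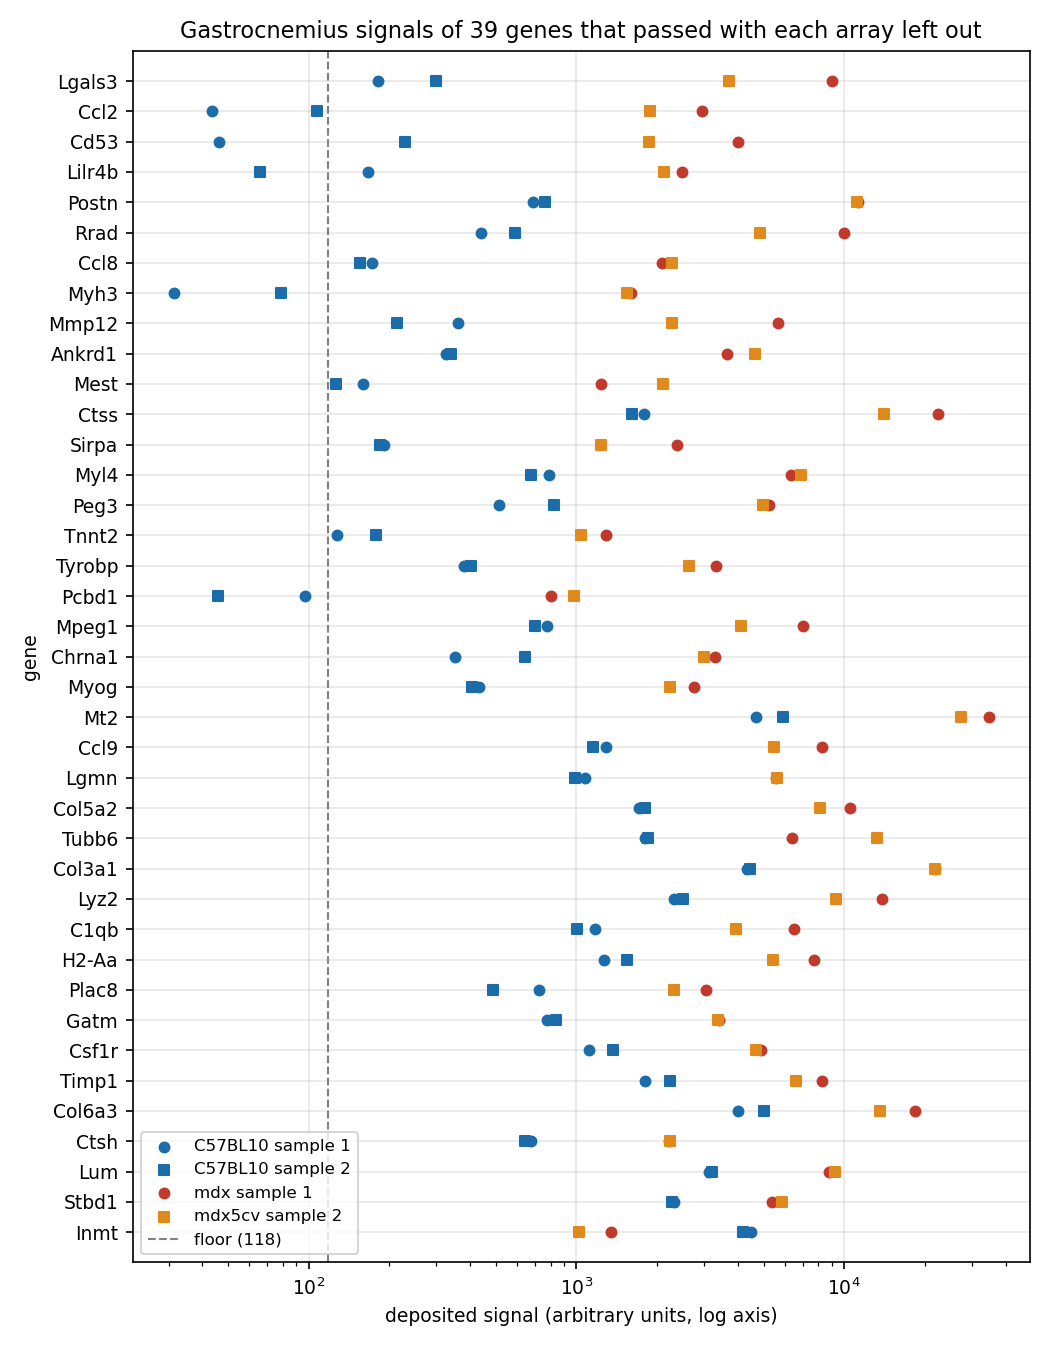
Deposited signal (log axis) on the 4 gastrocnemius arrays of the 39 genes that passed with each array left out, from the largest increase at the top to Inmt, the gene that fell, at the bottom. Blue marks are the 2 C57BL10 arrays, red the mdx array and orange the mdx5cv array. The groups do not overlap for any of the 133 called genes, these 39 among them.

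Some of the called genes are neighbours on the chromosome, and both genes of each such pair rose. Since 128 of the 133 called genes rose, the shared direction tells little. The number of adjacent pairs among all genes was not counted. In the RefSeq order of protein-coding genes (assembly GRCm38.p6), 8 pairs of called genes stand next to each other. They are the collagen genes Col3a1 and Col5a2, the chemokine genes Ccl2 and Ccl7, H2-Ab1 with H2-Aa and H2-Aa with H2-Eb1 of the class II cluster, the cathepsin genes Ctsk and Ctss, C1qb with C1qc and C1qc with C1qa of complement, and the metallothionein genes Mt1 and Mt2.

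Promoter windows are shown for 5 genes that rose, 3 of the muscle programme and the adjoining metallothionein pair, because transcription factors with well known letters act on such genes: MyoD and myogenin bind E-boxes, and the zinc sensor MTF-1 binds metal response elements. Each window is 300 bases, 250 before and 50 after the start of the gene, from RefSeq (GRCm38.p6). Capitals mark CANNTG, the E-box, in the first 3 windows, and the core letters TGCACNC or TGCGCNC of the metal response element, on either strand, in the last 2.
Myog (chr1:134289754-134290053, plus strand): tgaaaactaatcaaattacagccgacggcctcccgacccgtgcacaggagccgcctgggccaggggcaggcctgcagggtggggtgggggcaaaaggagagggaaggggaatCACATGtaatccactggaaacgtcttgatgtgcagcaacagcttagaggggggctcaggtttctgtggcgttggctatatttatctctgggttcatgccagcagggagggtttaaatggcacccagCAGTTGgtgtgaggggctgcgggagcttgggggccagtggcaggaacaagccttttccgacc
Chrna1 (chr2:73580289-73580588, minus strand): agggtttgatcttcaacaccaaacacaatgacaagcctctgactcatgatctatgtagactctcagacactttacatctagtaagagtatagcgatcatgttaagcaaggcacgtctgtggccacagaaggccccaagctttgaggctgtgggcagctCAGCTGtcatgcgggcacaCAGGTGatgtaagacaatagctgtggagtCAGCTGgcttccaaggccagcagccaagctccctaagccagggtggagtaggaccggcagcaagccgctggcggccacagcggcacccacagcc
Myh3 (chr11:67078050-67078349, plus strand): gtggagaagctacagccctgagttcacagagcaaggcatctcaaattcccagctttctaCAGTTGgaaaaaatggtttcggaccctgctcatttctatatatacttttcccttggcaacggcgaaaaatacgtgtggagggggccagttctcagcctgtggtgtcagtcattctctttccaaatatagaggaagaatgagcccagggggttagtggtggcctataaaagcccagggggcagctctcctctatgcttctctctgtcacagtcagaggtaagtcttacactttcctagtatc
Mt1 (chr8:94178839-94179138, plus strand): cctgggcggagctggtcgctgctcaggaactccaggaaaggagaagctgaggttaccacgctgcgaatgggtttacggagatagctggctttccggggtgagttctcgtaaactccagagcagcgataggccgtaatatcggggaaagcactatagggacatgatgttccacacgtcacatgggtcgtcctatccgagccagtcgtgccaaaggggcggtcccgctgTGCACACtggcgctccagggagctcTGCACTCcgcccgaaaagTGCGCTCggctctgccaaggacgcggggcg
Mt2 (chr8:94172368-94172667, plus strand): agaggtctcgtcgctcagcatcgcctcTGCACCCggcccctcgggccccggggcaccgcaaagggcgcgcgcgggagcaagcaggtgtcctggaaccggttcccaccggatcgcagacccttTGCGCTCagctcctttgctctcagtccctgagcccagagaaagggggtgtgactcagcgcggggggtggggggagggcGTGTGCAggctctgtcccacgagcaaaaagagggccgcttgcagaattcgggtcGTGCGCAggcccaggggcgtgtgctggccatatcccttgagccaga

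The E-box letters occur 2 times in the Myog window, 3 times in that of Chrna1 and 1 time in that of Myh3. In the Chrna1 window 2 of the 3 matches are CAGCTG, a form contained in CANNTG. Such letters are common, since 72.3% of all 32851 windows hold CANNTG and 16.3% hold CAGCTG. The metal response core occurs 3 times in the Mt1 window and 4 times in that of Mt2, against 25.7% of all windows with at least 1 match. A gene can have several start sites and so several windows: 101 of the 128 genes that rose had at least 1, 17 of them several, 129 windows in all. Among these 129 windows the shares were 72.9% for CANNTG, 24.0% for CAGCTG and 23.3% for the metal response core, given as a description with no test.

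The mutated gene itself did not pass the test. Dmd had signals of 464.8, 608.4, 201.9 and 359.7, so both mutant arrays lay below both C57BL10 arrays, with a change of -0.98 ± 0.60 and an adjusted p of 0.70. Both mutations are single-base changes that the probes need not cover, so this signal is no check of the labels. Utrn encodes utrophin, the homologue of dystrophin that can take over part of its role. Its signals were 561.8, 482.7, 708.8 and 705.2, with a change of 0.44 ± 0.51 and an adjusted p of 0.93. None of the 11 tested genes of the dystrophin complex passed, and their median change was 0.15. Among them were the sarcoglycan genes Sgca (-0.37 ± 0.38) and Sgcb (0.10 ± 0.34), the dystroglycan gene Dag1 (0.09 ± 0.41) and Cav3, the gene of muscle caveolin (0.60 ± 0.31, adjusted p = 0.59). Sgcd, Sntb1, Sntb2, Dtnb and Nos1 lay under the filter on low signals.

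Chemokines that attract monocytes were among the largest changes. Ccl2, the gene of the attractant MCP-1, had signals of 43.5, 107.8, 2930.3 and 1879.5. Both C57BL10 arrays were under the floor and both mutants far above it, so against the floor the mutants were at least 19.9-fold higher (change 4.31 ± 0.58, adjusted p = 5.1e-05). Ccl7, its neighbour and also a monocyte attractant, read 32.0, 46.4, 1325.0 and 804.0 and was at least 8.75-fold higher (3.13 ± 0.64, adjusted p = 0.0059, 0.12 without mdx sample 1). Ccl8 read 172.8, 155.9, 2084.4 and 2270.6, with a change of 3.73 ± 0.63 (adjusted p = 8.4e-04). Ccl9 read 1284.6, 1148.6, 8246.4 and 5473.2, with a change of 2.47 ± 0.39 (adjusted p = 3.5e-04). The groups were well apart for both, and Ccl2, Ccl8 and Ccl9 passed with any array left out. The other 6 of 10 tested chemokines did not pass, among them Cxcl12, the stromal attractant of progenitor cells, which read 2594.9, 2583.9, 1243.6 and 1699.2 (-0.83 ± 0.27, adjusted p = 0.15). The receptor of CCL2 and CCL7, Ccr2, read 362.4, 440.8, 2444.6 and 1693.5 and rose by 2.35 ± 0.43 (adjusted p = 0.0019, 0.057 without mdx sample 1).

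Most tested markers of macrophages and monocytes rose. Of 20 tested, 13 rose, 8 of them with any array left out, none fell, and the median change was 2.10 against -0.03 for all genes. In all 20 both mutant arrays lay above both C57BL10 arrays, which held for 23.1% of all genes. These 20 are not all the markers: 27 are on the array, the rest lay under the filter on mean signal, and a marker can pass that filter because it is high in the mutants. Among those under it, Fcgr3 read 239.5, 374.7, 222.7 and 387.1, Fcer1g read 387.0, 114.0, 187.4 and 108.6, and Msr1 read 114.1, 182.7, 179.2 and 218.7, all with overlap between the groups. The mean log2 signal of the list was 9.17 and 9.21 in C57BL10, 11.83 in mdx and 11.15 in mdx5cv. Lgals3, the gene of galectin-3, a lectin made by phagocytes, had the largest change of all genes. Its signals were 180.8, 298.2, 9006.2 and 3715.0, a change of 4.64 ± 0.47, or 24.9-fold (adjusted p = 1.5e-06). Cd53, a tetraspanin of leukocytes, read 46.4, 228.8, 4010.6 and 1866.7 (4.06 ± 0.61, adjusted p = 2.0e-04, with C57BL10 sample 1 at the floor). Ctss, the gene of cathepsin S, a protease of antigen-presenting cells, read 1786.7, 1612.5, 22352.3 and 14040.8, a 10.4-fold change (3.38 ± 0.30, adjusted p = 2.2e-07). For these 3 genes the mdx array was the highest and the mdx5cv array the second, and neither came near the normal arrays. Mmp12, the macrophage elastase, read 359.6, 213.5, 5664.9 and 2283.4 (3.70 ± 0.61, adjusted p = 6.2e-04).

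Receptors and effector proteins of myeloid cells rose too, with exceptions. Lilr4b, an inhibitory receptor of myeloid cells that stands in no list, read 166.9, 65.9, 2470.0 and 2115.4 (4.03 ± 0.45, adjusted p = 4.4e-06). Csf1r, the receptor on which macrophage survival depends, read 1116.1, 1371.7, 4890.1 and 4684.7 (1.95 ± 0.29, adjusted p = 1.8e-04), and the 2 mutants lay close together. Tyrobp, the adaptor of activating myeloid receptors, read 381.4, 404.8, 3332.8 and 2636.8 (2.92 ± 0.41). Mpeg1, the pore-forming perforin-2 of macrophages, changed by 2.87 ± 0.33 and Lyz2, lysozyme, by 2.25 ± 0.36, both with any array left out. Cd68, a lysosomal membrane protein of macrophages, read 820.0, 759.4, 6004.0 and 2312.4 (2.24 ± 0.33, adjusted p = 1.4e-04, 0.062 without the mdx array). Adgre1, the gene of the F4/80 antigen, read 435.4, 374.0, 1059.4 and 1388.2 and did not pass (1.59 ± 0.60, adjusted p = 0.27). Sirpa, the receptor on phagocytes for the signal that spares healthy cells, stands in no list and read 191.3, 185.2, 2373.1 and 1239.6 (3.19 ± 0.53, adjusted p = 6.9e-04).

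Markers of other white cells and of erythroid cells did not pass. There was none among 7 tested lymphocyte genes (median 0.02), none among 4 genes of granulocytes and mast cells (median -0.32) and none among 6 erythroid genes (median -0.53). Most lymphocyte and granulocyte genes were under the filter on low signals, with 18 and 17 on the array. The lists therefore rest on the few genes with enough signal. The lists of fat cells (9 tested), nerve and Schwann cells (4), smooth muscle and pericytes (10) and liver (12) had no gene past the threshold, with medians from -0.29 to -0.11. Of 15 endothelial genes 1 passed, the junction gene Cldn5, which read 330.1, 534.6, 1088.6 and 1129.1 (1.40 ± 0.34, adjusted p = 0.023, 0.42 without C57BL10 sample 1).

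Some lysosomal genes rose as well, and Ctss belongs to this list and to that of macrophages. The macrophage markers were higher on the same 2 arrays as the genes of lysosome, antigen presentation, complement and matrix described next, and their part in those results was not tested. Of 22 tested, 7 rose, 3 of them with any array left out, and the median change was 0.93. Lgmn, the gene of legumain, an asparaginyl protease of the endosome, read 1073.8, 986.1, 5558.5 and 5613.1 (2.44 ± 0.32, adjusted p = 4.0e-05). Ctsh, cathepsin H, read 679.0, 639.8, 2219.0 and 2225.9 (1.75 ± 0.31, adjusted p = 0.0014). In both genes the 2 mutant arrays were nearly equal and far above the C57BL10 arrays. Glb1, a galactosidase, read 112.1, 89.2, 866.9 and 706.3, at least 6.63-fold above the floor (adjusted p = 0.017, 0.16 without mdx sample 1). Ctsd and Lamp1, major lysosomal genes of every cell type, had changes of -0.08 ± 0.39 and 0.00 ± 0.36.

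Some genes of antigen presentation and complement rose, among them those of class II and of C1q. Of 14 presentation genes 4 rose, 1 of them with any array left out, and in 13 both mutant arrays were above both C57BL10 arrays (median 1.16). H2-Aa, a class II chain, read 1262.6, 1550.1, 7711.7 and 5401.6, a 4.61-fold change (2.21 ± 0.32, adjusted p = 1.3e-04). H2-Ab1 (2.10 ± 0.39), H2-Eb1 (1.28 ± 0.33) and the class II chaperone Cd74 (2.05 ± 0.50) passed, but without C57BL10 sample 1 their adjusted p were 0.058, 0.24 and 0.44. Class I genes had smaller values that did not pass, among them B2m (0.95 ± 0.41), H2-D1 (0.77 ± 0.34) and H2-K1 (0.68 ± 0.36), each in its brightest probe set. A dimmer probe set of H2-D1 read 731.9, 534.1, 1254.6 and 2129.8 and passed (1.39 ± 0.32, adjusted p = 0.016, 0.34 without mdx5cv sample 2). Of 10 complement genes 5 rose (median 1.26). C1qb, a chain of the first complement component, read 1177.1, 1003.0, 6478.3 and 3930.9 (2.22 ± 0.32, adjusted p = 1.1e-04) and passed with any array left out. C1qa read 550.8, 883.7, 7034.8 and 2575.1 (2.61 ± 0.57, adjusted p = 0.010), and without mdx sample 1 its adjusted p was 0.35. Of 11 interferon-response genes 1 passed, Isg15, a ubiquitin-like modifier, which read 243.2, 127.0, 1095.1 and 1158.2 (2.68 ± 0.67, adjusted p = 0.027, 0.30 without C57BL10 sample 2). The other 10 had positive values, as did 2690 of all 5695 genes, and the median of the list was 0.97. Of the list 16 genes are on the array, and a gene can pass the filter on mean signal because it is high in the mutants. Among those under it, Mx1 (218.3, 11.2, 195.1 and 359.4) and Usp18 (62.4, 110.8, 313.0 and 34.6) overlapped between the groups. Ifit1, Ifit2 and Ifi47, also under it, were higher on both mutant arrays.

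Matrix genes rose in part. Of 38 tested 10 rose, 5 of them with any array left out, none fell, and the median change was 1.03. Postn, the gene of periostin, a matrix protein of injured and remodelling tissue, had the lowest p of all genes. It read 686.6, 763.6, 11225.3 and 11145.4, with the 2 mutants nearly equal, a 15.4-fold change (3.95 ± 0.31, adjusted p = 4.7e-08). Col3a1, type III collagen, read 4317.9, 4461.1, 21757.1 and 21725.2 (2.31 ± 0.33, adjusted p = 1.2e-04). Col5a2, its neighbour on the chromosome and a chain of type V collagen, read 1718.4, 1806.4, 10483.0 and 8093.5 (2.39 ± 0.33, adjusted p = 9.4e-05). In both collagens the arrays of each group lay close together and far from the other group. Col6a3, type VI collagen, read 4010.2, 5008.7, 18431.3 and 13594.6 (1.82 ± 0.29), and Lum, lumican, a proteoglycan of collagen fibrils, read 3127.1, 3200.6, 8793.1 and 9226.4 (1.51 ± 0.28). Vcan, versican, a large proteoglycan, changed by 2.90 ± 0.61 (adjusted p = 0.0074, 0.12 without C57BL10 sample 1).

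Several abundant matrix genes did not pass. Col1a1 and Col1a2, the chains of type I collagen, had values of 1.04 ± 0.35 (adjusted p = 0.17) and 0.52 ± 0.46 (adjusted p = 0.88). Dcn, decorin, read 44783.4, 35943.7, 34192.5 and 39334.6, and the groups overlapped (-0.13 ± 0.40). Fn1, fibronectin, had a value of 0.54 ± 0.37. Among 10 matrix proteases and inhibitors 3 rose, Mmp12, Ctsk and Timp1, 2 of them with any array left out. Ctsk, the gene of cathepsin K, had an adjusted p of 0.57 without mdx sample 1. Timp1, an inhibitor of matrix metalloproteinases, read 1805.7, 2230.7, 8270.9 and 6590.9 (1.88 ± 0.33, adjusted p = 0.0012). Timp3, another inhibitor of the family, read 7377.2, 10622.4, 5212.4 and 4906.6 and did not pass (-0.81 ± 0.34, adjusted p = 0.37). Of 14 fibroblast markers 3 rose, S100a4, Mfap5 and Lum, of which Lum is also in the matrix list (median 0.76). Lum alone passed with any array left out, while the adjusted p was 0.05 for S100a4 without C57BL10 sample 2 and 0.41 for Mfap5 without mdx5cv sample 2. None of 21 growth factors and binding proteins passed (median -0.27). Mstn, myostatin, the inhibitor of muscle growth, read 8200.7, 6136.5, 2635.0 and 4062.0, apart but not past the test (-1.12 ± 0.37, adjusted p = 0.15).

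Part of the embryonic and regeneration genes of muscle rose. Of 28 tested 12 rose, 9 of them with any array left out, none fell, and the median change was 1.01. Myh3, the embryonic myosin heavy chain, which new fibres make first, read 31.3, 79.1, 1592.5 and 1548.5. Both C57BL10 arrays were under the floor, so the mutants were at least 13.3-fold higher (3.73 ± 0.47, adjusted p = 2.1e-05). Myl4, the embryonic and atrial myosin light chain, read 792.7, 675.0, 6342.6 and 6875.9 (3.17 ± 0.42, adjusted p = 4.0e-05). Tnnt2, the cardiac and fetal troponin T, read 127.5, 178.0, 1287.6 and 1036.4 (2.94 ± 0.47, adjusted p = 4.0e-04). For these 3 genes the 2 mutant arrays were close to each other. Myh8, the perinatal heavy chain, read 345.3, 220.2, 1290.6 and 1083.0 (2.10 ± 0.51, adjusted p = 0.022, 0.25 without C57BL10 sample 2).

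Among the myogenic transcription factors Myog alone passed. Myog, myogenin, which starts the differentiation of myoblasts and whose promoter window is printed above, read 432.9, 406.0, 2743.6 and 2236.2, a 5.91-fold change (2.56 ± 0.46, adjusted p = 0.0017). Myod1 read 2037.1, 2490.4, 5314.3 and 2797.9 (0.78 ± 0.31, adjusted p = 0.32). Myf5 (0.26 ± 0.66) and Myf6 (-0.09 ± 0.32) overlapped between the groups. The acetylcholine receptor gene Chrna1, which fibres express along their length when not innervated, read 352.5, 644.9, 3278.6 and 2988.8, a 6.57-fold change (2.71 ± 0.40, adjusted p = 1.7e-04). Chrnb1 passed too (1.49 ± 0.35, adjusted p = 0.017, 0.23 without C57BL10 sample 1), and of the 10 tested genes of synapse and denervation these were the 2 that rose. Chrng, the fetal subunit, read 214.8, 555.2, 1533.3 and 660.3 (1.54 ± 0.84, adjusted p = 0.61). Chrne, the adult subunit, overlapped (-0.02 ± 0.69).

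Several other genes of large change can be named singly. Some of them, such as Ankrd1 and Mest, belong to the list of embryonic and regeneration genes and are already counted there. Ankrd1, a titin-binding ankyrin repeat protein induced by stretch and injury, read 325.1, 341.2, 3638.9 and 4621.8 (3.62 ± 0.40, adjusted p = 4.3e-06). Its relative Ankrd2 did not pass and had the opposite sign, at 6581.8, 5257.1, 4142.8 and 2993.6 (-0.74 ± 0.36, adjusted p = 0.52). Rrad, a small GTPase that inhibits calcium channels, read 440.5, 587.0, 9972.7 and 4849.9 (3.77 ± 0.39, adjusted p = 1.5e-06). The imprinted genes Mest and Peg3, which are expressed from the paternal allele, also rose. Mest read 159.3, 127.0, 1236.2 and 2103.0 (3.50 ± 0.47, adjusted p = 4.9e-05), and Peg3 read 513.2, 822.3, 5227.1 and 4969.7 (2.97 ± 0.36, adjusted p = 1.2e-05). Igf2, an imprinted growth factor, read 4636.7, 4639.4, 18202.3 and 20424.6 (2.06 ± 0.45, adjusted p = 0.010, 0.091 without C57BL10 sample 1). Another imprinted gene of the list, Dlk1, overlapped between the groups (-0.09 ± 0.40). Tubb6, a tubulin, read 1796.7, 1851.5, 6398.8 and 13283.8 (2.34 ± 0.30, adjusted p = 3.5e-05), with the mdx5cv array the highest.

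Few stress and early genes rose. Of 23 genes of heat shock and oxidative stress 2 rose, the metallothionein genes Mt2 and Mt1, and the median was 0.00. Mt2 read 4684.7, 5883.6, 34701.0 and 27381.6, a 5.87-fold change (2.55 ± 0.31, adjusted p = 1.4e-05). Mt1, whose window stands above with that of Mt2, read 2537.4, 1986.8, 9172.5 and 5878.5 (1.71 ± 0.36, adjusted p = 0.0068, 0.19 without mdx sample 1). Metallothioneins bind zinc and copper. Hmox1, haem oxygenase, had a value of 0.40 ± 0.29 and did not pass. Of 15 immediate early genes Fos, Junb and Atf3 rose, and each lost the call, at adjusted p of 0.42 without mdx sample 1, 0.34 without C57BL10 sample 2 and 0.54 without mdx sample 1. Fos read 496.1, 532.4, 3110.6 and 1179.1, with the mdx array well above the mdx5cv array (1.90 ± 0.38). Of 14 genes of membrane repair and S100 proteins 5 rose, none of them with each array left out in turn (median 0.76). They were Anxa1, Anxa2 and Anxa4, annexins that bind membranes with calcium, and S100a4 and S100a13. Anxa4 read 1099.5, 1207.8, 4476.3 and 2672.1 (1.59 ± 0.25, adjusted p = 4.0e-04, 0.058 without the mdx array). Gadd45a, a growth arrest gene, was the only one of 24 genes of atrophy and the proteasome to pass (1.65 ± 0.32, adjusted p = 0.0032, 0.067 without C57BL10 sample 1).

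The lists of slow and fast fibre proteins and of energy metabolism had no gene past the threshold, and most of their values were below 0. The medians were -0.54 over 13 slow fibre genes, -0.37 over 20 fast fibre genes, -0.43 over 21 genes of fatty acid oxidation, -0.37 over 20 of glycolysis and glycogen and -0.38 over 44 of oxidative phosphorylation. After quantile normalization they were -0.52, -0.03, -0.38, -0.06 and -0.21 in the same order. The values of the abundant fast fibre and glycolysis genes thus depended on the scaling. Mb, myoglobin, the oxygen store of the fibre, read 51312.5, 40605.6, 22723.7 and 15771.1 (-1.27 ± 0.39, adjusted p = 0.11). Myl3, the slow light chain, read 19168.6, 18120.7, 5571.7 and 7621.0 (-1.52 ± 0.50, adjusted p = 0.15). Both mutant arrays were below both C57BL10 arrays in each. Myh7, the slow heavy chain, read 15123.4, 15256.0, 4992.2 and 18327.1, so mdx was low and mdx5cv was not (-0.67 ± 0.34). Ppp1r3c, which targets a phosphatase to glycogen, read 7399.2, 6826.6, 3673.2 and 1799.6 (-1.47 ± 0.45, adjusted p = 0.11). In fatty acid oxidation both mutant arrays were below both C57BL10 arrays in 14 of 21 genes, against 22.9% of all genes. The same held for 12 of 20 genes of glycolysis and glycogen and 23 of 44 of oxidative phosphorylation. It held for 8 of 13 slow fibre and 5 of 20 fast fibre genes. Pdk4, a kinase that shuts off the use of pyruvate, read 8625.4, 8205.8, 13966.3 and 26706.0 (1.20 ± 0.52, adjusted p = 0.41). No gene of 19 cell cycle genes (median 0.50) or of 14 clock genes (median -0.42) passed.

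**Figure D3:**
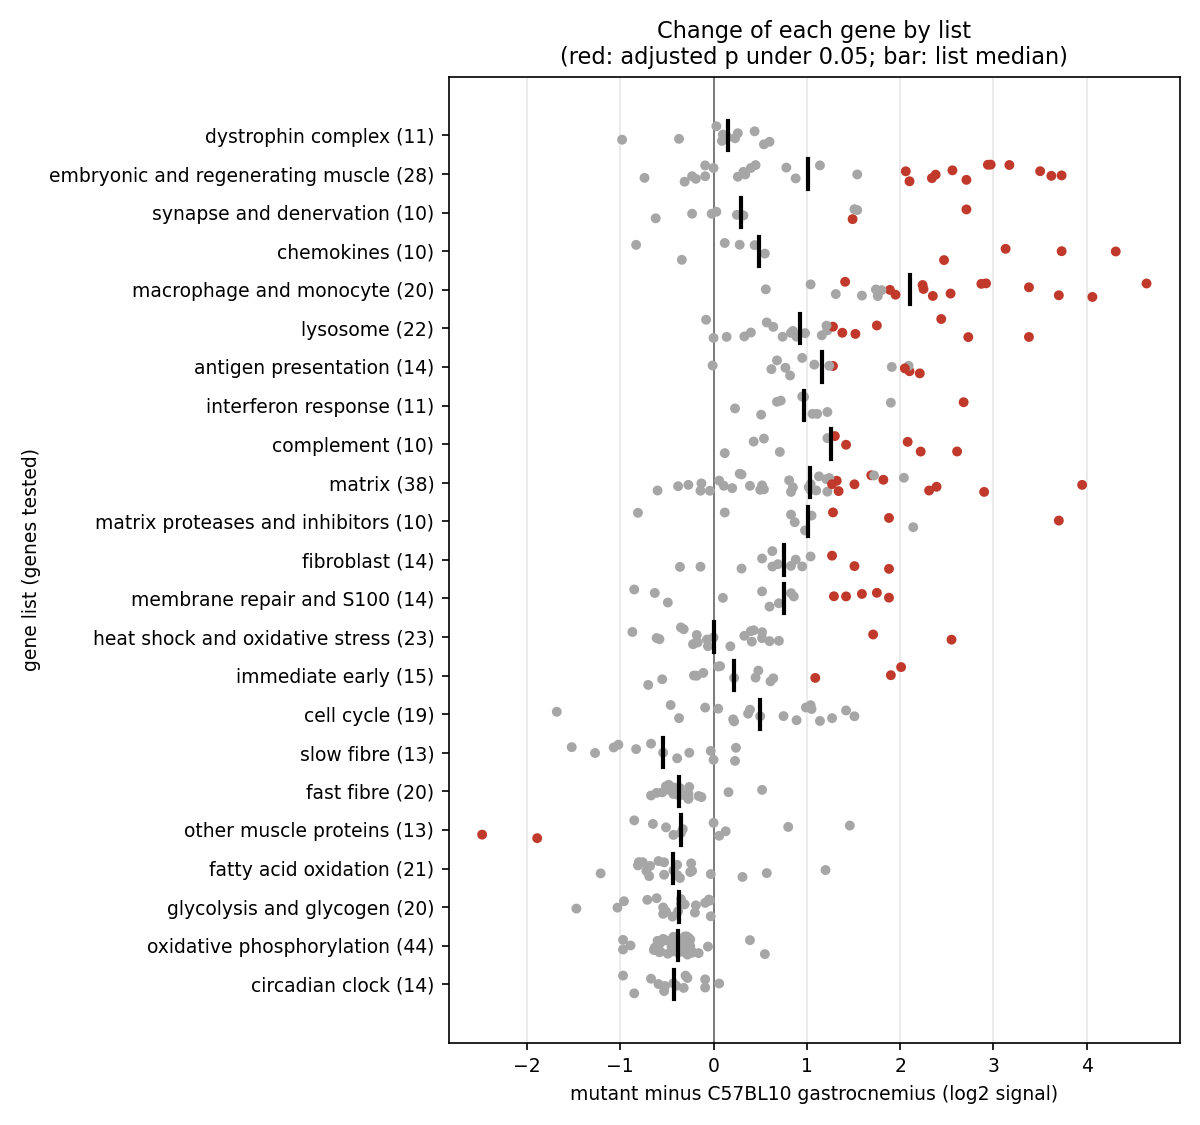
Change of each tested gene (points, x axis, log2 signal) in 23 of the 34 gene lists, with the number of genes tested in brackets and the list median as a black bar. Red points passed the threshold; they lie to the right of 0 except for Ces1d and Inmt in the list of other muscle proteins, and the macrophage list has the highest median (2.10).

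A few genes that rose outside any list were chosen here after their values were seen. Gatm, the first enzyme of creatine synthesis, read 773.8, 835.1, 3407.8 and 3370.8 (2.08 ± 0.37, adjusted p = 0.0015). Stbd1, a protein that binds glycogen, read 2318.2, 2264.2, 5361.9 and 5872.2 (1.29 ± 0.24, adjusted p = 0.0021). Both passed with any array left out. Gamt, the second enzyme of creatine synthesis, passed in 1 probe set (1541.1, 2131.1, 5036.7 and 6426.6, adjusted p = 0.0015, 0.062 without C57BL10 sample 1), while its brighter probe set did not (0.60 ± 0.34, adjusted p = 0.65). Cpt1a, which brings fatty acids into mitochondria, read 364.2, 980.3, 4353.0 and 2902.1 (2.57 ± 0.43, adjusted p = 7.7e-04, 0.062 without C57BL10 sample 1).

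The 5 genes that fell were Ces1d, Nup107, Inmt, Ddit4 and Wnk2. Ces1d and Inmt are the 2 called genes among 13 in the list named other muscle proteins, whose median was -0.35, or 0.02 after quantile normalization. The lists were chosen with earlier results of these data known, so these 2 calls are no separate support for that list. Inmt, a methyltransferase of indole amines, read 4481.3, 4196.2, 1346.5 and 1020.3, which is 3.70-fold lower in the mutants (-1.89 ± 0.33, adjusted p = 0.0013), and it passed with any array left out. Ces1d, a carboxylesterase that splits lipid esters, read 1634.2, 1310.3, 244.9 and 282.6, or 5.56-fold lower (-2.48 ± 0.49, adjusted p = 0.0047, 0.083 without C57BL10 sample 1). In both genes the groups were far apart. After quantile normalization Inmt (limma adjusted p = 0.0011) and Nup107 (0.047) still passed. Ces1d (0.12), Ddit4 (0.36) and Wnk2 (0.073) then did not. With the scanning period as a block the adjusted p of Wnk2 was 0.08. Ddit4, an inhibitor of the growth kinase mTORC1, read 5565.3, 4582.3, 2836.5 and 1310.4 (-1.39 ± 0.37, adjusted p = 0.048, 0.68 without mdx5cv). Wnk2, a kinase, read 5445.0, 6593.2, 2484.1 and 2919.2 (-1.15 ± 0.30, adjusted p = 0.036, 0.30 without C57BL10 sample 2). Nup107, a nuclear pore protein, read 1235.3, 1244.0, 818.0 and 99.6 (-2.00 ± 0.46, adjusted p = 0.015). That call rested on the mdx5cv array, which was under the floor, and without it the adjusted p was 0.89. Of the other 3 probe sets that fell, 2 belong to Rhou and Pcp4l1, whose brighter probe sets did not pass (-1.49 ± 0.41, adjusted p = 0.055 and -0.79 ± 0.37, adjusted p = 0.49), and 1 has no single symbol.

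Each mutant was also set against the same 2 C57BL10 arrays. With mdx alone 108 probe sets passed (1.45%), 102 higher (1.37%) and 6 lower (0.0805%), and with mdx5cv alone 76 passed (1.02%), 64 higher (0.859%) and 12 lower (0.161%). The 2 comparisons share their controls, so their values are given side by side only. Lgals3 was at 5.28 in mdx and 4.0 in mdx5cv, Ctss at 3.72 and 3.05, Cd68 at 2.93 (adjusted p = 1.3e-04) and 1.55 (adjusted p = 0.061), and Postn at 3.95 and 3.94. The median of the macrophage list was 2.43 in mdx and 1.85 in mdx5cv, that of the lysosome list 1.34 and 0.71, and that of the regeneration list 1.26 and 0.85. Of the 128 genes that rose, 92 had the larger change in mdx, and of the 5 that fell 2 did.

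The difference of the mutants itself had no probe set past the threshold. In the contrast of mdx5cv minus mdx, 0 of 7453 probe sets passed in limma (0.0%), while 270 had an unadjusted p under 0.05. The lowest adjusted p belonged to Erdr1, an erythroid differentiation regulator, which read 6550.4, 6539.4, 735.0 and 7569.2 (3.36 ± 0.63, adjusted p = 0.092). Of these 4 arrays the mdx array alone was low. Against C57BL10 gastrocnemius, Erdr1 was at -3.15 ± 0.55 in mdx and 0.21 ± 0.55 in mdx5cv. In each of the other 5 muscles the mean of the 2 mutants was below C57BL10, from -2.18 in quadriceps to -1.13 in tibialis anterior. That mean does not tell the mutants apart. Slc27a1, a fatty acid transporter, read 909.4, 1169.7, 1689.1 and 91.2, with the mdx5cv array alone under the floor (-3.84 ± 0.89, adjusted p = 0.22). With 1 array of each mutant, the median standard error was 0.61 on the log2 scale.

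The response in gastrocnemius was then compared with that in the other 5 muscles. No probe set differed past the threshold from their mean change (0 of 7453, 0.0%, with 151 at an unadjusted p under 0.05) or from the change in quadriceps (0, 0.0%, 147). The lowest adjusted p against the other 5 muscles were those of Pcbd1 and Nup107, both 0.16. Pcbd1, an enzyme that recycles tetrahydrobiopterin, read 97.2, 46.0, 801.1 and 978.0 in gastrocnemius, with both C57BL10 arrays under the floor (2.91 ± 0.35, adjusted p = 1.4e-05 against normal). Its change was 2.60 in quadriceps, 2.02 in soleus, 1.85 in EDL, the extensor digitorum longus, -0.48 in TA, the tibialis anterior, and -1.34 in diaphragm, so that gastrocnemius stood 1.98 ± 0.38 above the mean of the other 5. Nup107 had changes between -0.05 and 1.27 in those muscles, and the difference was -2.45 ± 0.49.

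Of the 133 genes called in gastrocnemius, 105 were called in quadriceps too, where 5.57% of all genes were called, and 112 differed in the same direction in all of the other 5 muscles, which held for 18.3% of all genes. The macrophage list had medians of 2.47 in quadriceps, 2.20 in EDL, 2.10 in gastrocnemius, 1.29 in diaphragm, 1.23 in soleus and 0.90 in TA. For antigen presentation the order was 1.16 in gastrocnemius, 0.82 in quadriceps, 0.80 in EDL, 0.55 in TA, 0.53 in soleus and 0.48 in diaphragm, and for complement 1.26 in gastrocnemius and 0.39 to 1.03 elsewhere. The regeneration list was highest in diaphragm at 1.75, then 1.43 in quadriceps, 1.10 in EDL and 1.01 in gastrocnemius. Matrix was at 1.03 in gastrocnemius and quadriceps and 1.06 in diaphragm. These medians describe the arrays and were not tested between muscles. The quadriceps values include the mdx sample 2 and mdx5cv sample 1 columns that the table also holds under gastrocnemius. One of the arrays behind the TA values, C57BL10 TA sample 2, and 1 behind the quadriceps values, mdx5cv quadriceps sample 2, had a median correlation with the other arrays under 0.8.

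**Figure D4:**
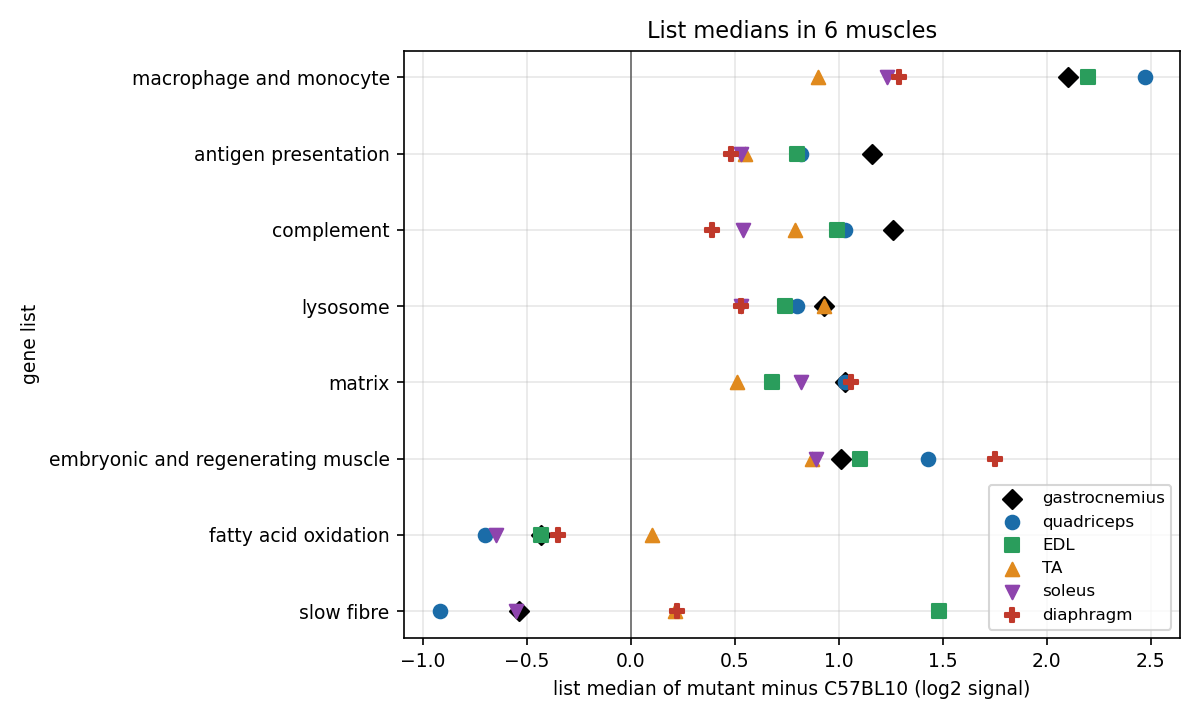
Median change (x axis, mutant minus C57BL10, log2 signal) of 8 gene lists in each of 6 muscles, 1 mark per muscle, gastrocnemius as a black diamond. The macrophage median in gastrocnemius (2.10) lies next to those of EDL (2.20) and quadriceps (2.47), and the slow fibre medians run from -0.92 in quadriceps to 1.48 in EDL.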

How the data were processed

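MG_U74Av2 arrays measured RNA from 3 strains and 6 muscles, in 36 columns and 18 groups. The authors deposited linear signal intensities, scaled so that each column has a trimmed mean of 1500 to 1501. The signal algorithm was not given in the sources used. Detection calls were not used. From the deposited experiment files (unit other: array settings) the chip type, chip lot and scan day were read, and only the scan day was used in a fit. A gap of over 30 days began a new scanning period, and the period that held 1 array was merged with the third for the block.

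Signals below the table's 20th percentile (118) were set to it before taking log2. After 66 control probe sets were removed from 12488, the tests kept 7453 of 12422, those whose mean reached the 40th percentile. The platform annotation, with 12 symbols updated, names 10833 probe sets by 1 symbol and 396 by several, while 1193 have no symbol. The probe set of highest mean stands for a gene, which gives 5695 genes. Each pair of identical columns entered once, under quadriceps, so 34 arrays were fitted. limma 3.58.1 in R 4.3.3 estimated 18 group means (16 residual degrees of freedom, eBayes with trend). mdx and mdx5cv had equal weight. Tests were two-sided, with Benjamini-Hochberg adjustment over all probe sets of a contrast. Precision is limited by how few arrays there are.

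The members, the 34 gene lists and the tests were chosen with earlier results of these data known. The genes named by rule are Dmd and Utrn, the 12 highest and 12 lowest called genes whose groups do not overlap, the 4 called genes of largest change in each list, the 4 highest and lowest called in each mutant, and the largest change of a list without calls. Other genes named, such as Myog, Tyrobp or Sirpa, were chosen after their values were seen. One array, mdx EDL sample 1, carries a label of mdx5cv in 1 field and of mdx in the others. It was treated as mdx and enters only the shared spread and the EDL values.

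The fit was tested on simulated data, with 50 probe sets changed at each of 4 sizes. The comparison of both mutants with C57BL10 found 0 of 50 at 1.5-fold, 6 at 2-fold, 37 at 4-fold and 44 at 8-fold. It also called 2 unchanged probe sets. A gene that did not pass may therefore still differ, above all where its change is 2-fold or less. Alternatives were quantile normalization, no filter, a floor at the 5th percentile, no trend, 1 probe set per gene, a block for scanning period or for sample number, the identical columns, the 4 arrays alone, leaving out arrays with a median correlation under 0.8, array weights, a minimum fold of 1.5 and each of the 34 arrays left out. The comparison within the third period, the fit of the 30 arrays of known period without the block and the list counts with arrays left out were added later, with the data in view. Python 3.11.15 and matplotlib 3.10.9 drew the figures.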

Additional observations from a re-analysis of the deposited data

How the results depend on the processing

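The count of 168 probe sets for both mutants against C57BL10 gastrocnemius was 119 after quantile normalization, 140 without a filter, 171 with the lower floor, 166 without a trend, 135 genes with 1 probe set per gene, 214 with the scanning period as a block, which left out 4 arrays of unknown period (207 without those arrays and without the block, a setting added after the data were seen), and 168 with a minimum fold of 1.5. It was 346 with all 36 columns and 377 with the copies named gastroc kept, where columns equal to quadriceps columns enter as gastrocnemius. It was 34 with the 4 arrays alone, where fewer arrays carry the spread, 288 without the arrays of low correlation and 358 with array weights. For mdx against C57BL10 (108) the counts with all columns, the gastroc copies, no arrays of low correlation and weights were 275, 366, 206 and 257, and for mdx5cv against C57BL10 (76) they were 184, 210, 132 and 178, with 46 after quantile normalization. The cause of these shifts was not tested. With single arrays left out the counts ran from 74 to 224, from 54 to 157 and from 29 to 103 for both mutants, mdx and mdx5cv.

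For mdx5cv minus mdx (0) the lower floor and the fit without a trend gave 1 probe set each, weights 2, and all columns or the gastroc copies 6 each. For the change against the other 5 muscles (0) the lower floor, no trend, all columns, the gastroc copies and weights gave 1 each, and against quadriceps (0) the gastroc copies gave 4. With single arrays left out these 3 counts ran from 0 to 1. Of the alternatives run for the named genes, 0 reversed a called direction. Since the groups do not overlap in any called gene, leaving out 1 array could not reverse its direction. The count of 0 is therefore no separate check for those fits. The main fit did not pair arrays by sample number. The deviations of same-numbered samples correlated from -0.36 to 0.62 over 120 pairs of groups (median 0.05). In 47 of these pairs the correlation was over 0.1, so part of the groups shared deviations by sample number. With the replicate block 186 probe sets passed, 166 of them among the 168.

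Each mutant has 1 array, the mdx array shares no scanning period with a C57BL10 array, and normal values under the floor of 118 (14 of the 133 called genes had such a C57BL10 array) give changes that depend on it.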
